A study of Arabidopsis thaliana with 9 samples.

Results

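AT2G41090 of Arabidopsis thaliana encodes CML10, a calmodulin-like protein. Its transcript was followed through the 1 probe set that the array annotation pairs with this gene, of 22810 probe sets on the array, in all 9 arrays of a comparison of vitamin C-deficient seedlings with the wild type. The seedlings were vtc1-1 mutants, vtc2-1 mutants, whose mutation was induced with EMS in the Col-0 background, and wild-type Col-0, with 3 arrays each. All had grown for 14 days on agar plates with minimal nutrients, and total RNA of whole plants was labelled with biotin. The values are linear MAS5 signals, 1 per probe set and array. Nothing in the labels ties the replicates to separate sowings. The p-values therefore reflect the scatter of these samples alone, which may be technical, and precision is limited by there being 3 arrays a genotype.

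As background, calmodulin-like proteins bind calcium ions through EF-hand motifs and pass calcium signals on by binding other proteins. CML10 is known to bind phosphomannomutase (PMM), the enzyme that turns mannose 6-phosphate into mannose 1-phosphate, and to support ascorbate synthesis. VTC1 encodes GDP-mannose pyrophosphorylase, which uses the product of PMM, and VTC2 encodes GDP-L-galactose phosphorylase, which acts further along the same route. The mutants are thus low in ascorbate through steps that lie after the one to which CML10 binds. No probe set is paired with VTC1 or VTC2 in the annotation used here, so the genotypes were not checked through the mutated genes.

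The 3 Col-0 arrays did not lie together, which touches every comparison with the wild type. Over the 14603 probe sets bright enough to be tested, Col-0 replicates 1 and 2 correlated at r = 0.933, whereas r was 0.874 and 0.889 between Col-0 replicate 3 and those arrays. For vtc2-1 replicate 3 r was 0.918 and 0.920 against its fellow vtc2-1 arrays, and among the vtc1-1 arrays r ran from 0.932 to 0.945. Against the mutant arrays r was 0.916 to 0.931 for Col-0 replicate 3. It was 0.888 to 0.926 for Col-0 replicate 1 and 0.896 to 0.931 for Col-0 replicate 2. Col-0 replicate 3 was thus no farther from the mutants than its fellow Col-0 arrays. A principal component analysis put 26.8% of the variance on its first axis. There vtc2-1 replicate 3 scored 28.0 and Col-0 replicate 3 scored 36.8, the highest scores, and Col-0 replicates 1 and 2 scored -47.5 and -37.3, the lowest. The labels name no batch, and the cause of these positions was not tested.

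The question of the first comparison was whether AT2G41090 transcripts differ between vtc1-1 seedlings and the wild type. The signal was 1890.1, 1431 and 1629 in vtc1-1 replicates 1, 2 and 3, against 343, 377 and 1667 in Col-0 replicates 1, 2 and 3. The vtc1-1 arrays lay close together, and all 3 were well above Col-0 replicates 1 and 2, while Col-0 replicate 3 fell inside their range. The means were 1649.9 ± 230.4 in vtc1-1 and 796 ± 755 in Col-0 (SD, n = 3 each). On the log2 scale vtc1-1 differed from Col-0 by 1.45 ± 0.55 (SE), a 2.73-fold higher level, with a 95% interval of 0.27 to 2.64. The difference did not pass the threshold of 0.05, since limma's p, adjusted by Benjamini-Hochberg over all tested probe sets, was 0.998 (unadjusted p = 0.0204). No probe set passed here, 0 of 14603 (0.0%) in limma, while 4.13% had an unadjusted p under 0.05, and 1.47% had a smaller p than AT2G41090. The exact two-sided permutation test over the arrays gave p = 0.3, and a design of 3 against 3 arrays cannot go below 0.1.

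**Figure D1:**
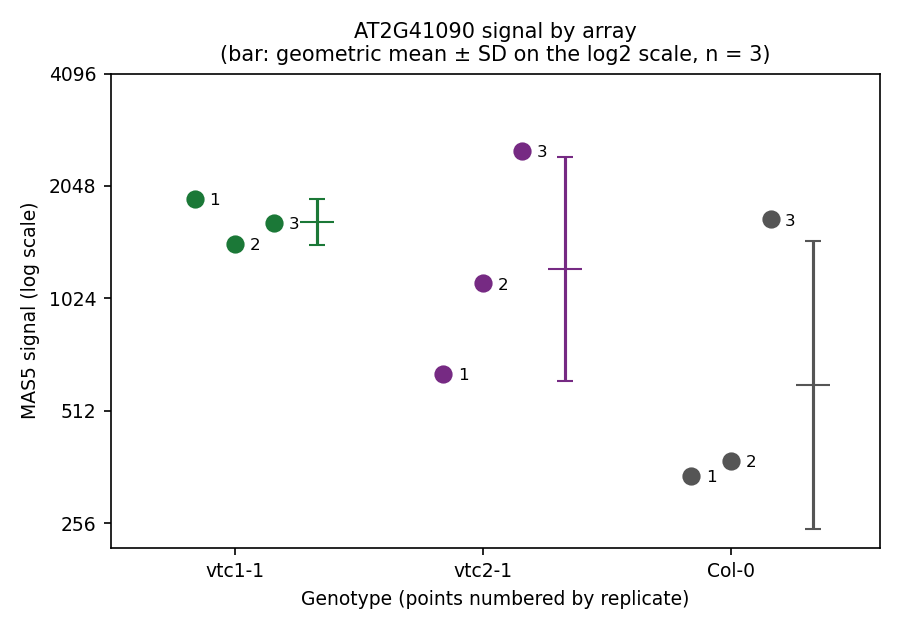
MAS5 signal of AT2G41090 (log axis) in each array of vtc1-1, vtc2-1 and Col-0, with points numbered by replicate and a bar for the geometric mean ± SD on the log2 scale (n = 3). The vtc1-1 arrays lie between 1431 and 1890.1, the vtc2-1 arrays spread from 644 to 2541, and Col-0 has 2 low arrays at 343 and 377 and 1 high array at 1667.

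The second comparison asked the same of vtc2-1. The signal was 644, 1124 and 2541 in vtc2-1 replicates 1, 2 and 3, against the same Col-0 values of 343, 377 and 1667. All 3 vtc2-1 arrays lay above Col-0 replicates 1 and 2, and only vtc2-1 replicate 3 lay above Col-0 replicate 3, so the groups overlapped. The means were 1436 ± 986 in vtc2-1 and 796 ± 755 in Col-0 (SD, n = 3 each). The log2 difference was 1.03 ± 0.55 (SE), 2.04-fold higher in vtc2-1, with a 95% interval of -0.15 to 2.22 and a limma adjusted p of 0.805 (unadjusted p = 0.0827), so it did not pass. Here limma called 1 of 14603 probe sets (0.00685%), 6.28% had an unadjusted p under 0.05, and 10.3% had a smaller p than AT2G41090. The exact permutation test again gave p = 0.3.

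The mutants were then set against each other and, pooled, against Col-0. The vtc2-1 level stood below the vtc1-1 level by a log2 difference of -0.42 ± 0.55 (SE, n = 3 arrays each), with a 95% interval of -1.61 to 0.77 and a limma adjusted p of 0.998, beside 1 call among all probe sets (0.00685%). That interval holds changes in either direction, so it does not show that the mutants are alike. Of the vtc2-1 arrays, 1 lay above and 2 lay below all vtc1-1 arrays. The order of the geometric means was vtc1-1 at 1639, vtc2-1 at 1225 and Col-0 at 599.7, and neither neighbouring pair in this order differed beyond its spread. With both mutants pooled the log2 difference from Col-0 was 1.24 ± 0.47 (SE), with a 95% interval of 0.21 to 2.27, a limma adjusted p of 0.825 and an exact permutation p of 0.119, where 6 against 3 arrays allow 0.0238, and limma called 0.0% of all probe sets, with 5.89% at an unadjusted p under 0.05. All 6 mutant arrays were above Col-0 replicates 1 and 2, and 2 of the 6 were above Col-0 replicate 3. Such a separation from Col-0 replicates 1 and 2 held for 14.5% of tested probe sets in vtc1-1, 16.3% in vtc2-1 and 8.68% in both mutants pooled. These comparisons share the Col-0 arrays and are not independent of each other.

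At AT2G41090 the arrays of vtc2-1 and Col-0 scattered more widely than those of vtc1-1. On the log2 scale the SD between replicates was 0.20 in vtc1-1, 1.00 in vtc2-1 and 1.28 in Col-0, beside medians over the tested probe sets of 0.23, 0.24 and 0.29. In vtc2-1 96.6% and in Col-0 97.1% of the tested probe sets had a smaller SD than AT2G41090, against 43.1% in vtc1-1. Among the 389 tested probe sets with a mean signal at least as high, 112 had a larger SD in vtc1-1, 4 in vtc2-1 and 5 in Col-0. In that bright set the vtc1-1 SD of AT2G41090 was above the median, which was 0.14. Col-0 replicate 3 was 4.42 times the higher of the other Col-0 arrays, a ratio reached or passed by 1.03% of the tested probe sets. The signal was between 11.3 and 84.9 times the 40th percentile of its array, so the gene passed the filter on dim probe sets in all 9 arrays. The probe set identifier ends in _at, with no suffix for probes shared between transcripts. In whole seedlings a change in the share of expressing cells and a change in transcript per cell cannot be told apart.

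The comparisons with Col-0 depended on Col-0 replicate 3, which stands apart from the other Col-0 arrays in general and not at AT2G41090 alone. Without it, AT2G41090 was 2.19 ± 0.38 (SE) higher in vtc1-1 on the log2 scale, with 3 against 2 arrays and a limma adjusted p of 0.0266, and 47 probe sets passed (0.322%). It was 1.77 ± 0.38 higher in vtc2-1, with an adjusted p of 0.0493, and 122 passed (0.835%). Over all 20 alternatives the adjusted p ran from 8.21e-05 to 1.00 in vtc1-1 and from 0.0194 to 0.999 in vtc2-1, and the difference was above 0 in every one. Leaving out Col-0 replicate 1 or 2 moved the vtc2-1 difference to 0.63 and 0.70, and leaving out vtc2-1 replicate 3 moved it to 0.50. With Col-0 replicate 3 and vtc2-1 replicate 3 both left out, the vtc2-1 difference was 1.24 ± 0.22 (limma adjusted p = 0.0194, with 0.794% of probe sets called), and vtc2-1 stood at -0.95 ± 0.20 from vtc1-1 (adjusted p = 0.0851, with 0.288% called). These arrays were left out because earlier results of these data had set them apart, and the smaller fits assume that the remaining arrays of a group vary like the others. Whether Col-0 replicate 3 or the other Col-0 arrays show the usual wild-type level was not tested.

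**Figure D2:**
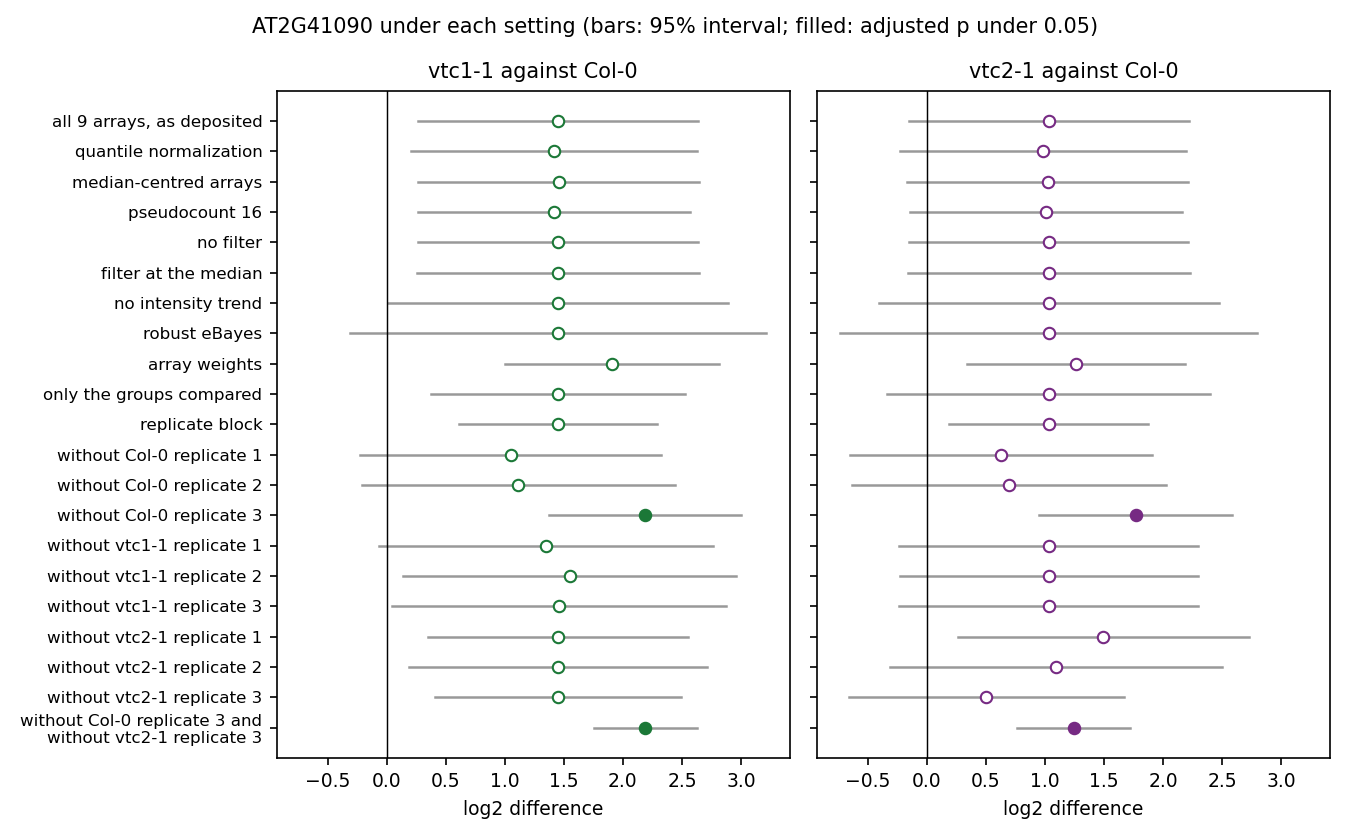
Log2 difference of AT2G41090 in vtc1-1 against Col-0 and in vtc2-1 against Col-0 (horizontal axes) under each setting (rows), with bars for the 95% interval of the limma coefficient and filled points where the adjusted p was under 0.05. Points are filled in the rows without Col-0 replicate 3, at 2.19 in vtc1-1, and at 1.77 and 1.24 in vtc2-1, and open in all other rows.

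PMM, the enzyme that CML10 binds, had a signal of 409, 431 and 452 in vtc1-1 replicates 1, 2 and 3, of 395, 421 and 456 in vtc2-1, and of 288, 297 and 439 in Col-0. As with AT2G41090, Col-0 replicates 1 and 2 were the lowest arrays, Col-0 replicate 3 sat among the mutants, and vtc2-1 replicate 3 was the highest array of all. The range was narrower, 1.58-fold from the lowest to the highest array for PMM against 7.40-fold for AT2G41090. PMM did not pass the threshold in either mutant. Without Col-0 replicate 3 its log2 difference was 0.55 ± 0.15 in vtc1-1 (limma adjusted p = 0.136) and 0.53 ± 0.15 in vtc2-1 (adjusted p = 0.104).

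Across the 9 arrays the log2 signals of AT2G41090 and PMM ran together, with Pearson r = 0.925 (exact permutation p = 0.00075, two-sided) and Spearman rho = 0.817 (exact permutation p = 0.0108). These permutations treat arrays of all genotypes as exchangeable, and their p does not measure how unusual PMM is among all probe sets. Of the 9 measured genes of ascorbate synthesis and its regulation, PMM was the only one whose r with AT2G41090 passed after Benjamini-Hochberg adjustment over the 9 relations (adjusted exact permutation p = 0.00675), and the other 8 had r between -0.52 and 0.54. With each genotype's mean removed, r was 0.895 (exact permutation within genotypes, p = 0.037), which did not pass over the 9 relations (adjusted p = 0.25). On that measure AT4G33670, which encodes L-galactose dehydrogenase, had r = -0.83 (exact permutation p = 0.0556, adjusted p = 0.25; named after its value was seen), and the other 7 lay between -0.65 and 0.35. Without the 2 arrays farthest from the median of AT2G41090, Col-0 replicates 1 and 2, r was 0.749 over 7 arrays (exact permutation p = 0.0464). It was 0.920 without Col-0 replicate 3.

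The relation is shared with the main axis of variation between the arrays. AT2G41090 correlated with the first principal component at r = 0.928 (rho = 0.867, n = 9 arrays) and PMM at 0.940. The residuals of both genes after regression on that component correlated at 0.41. An r with AT2G41090 at least as high as that of PMM was found for 0.596% of the other tested probe sets, and of deviations from genotype means for 2.12%. Whether AT2G41090 and PMM are related beyond what this axis gives was not tested.

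**Figure D3:**
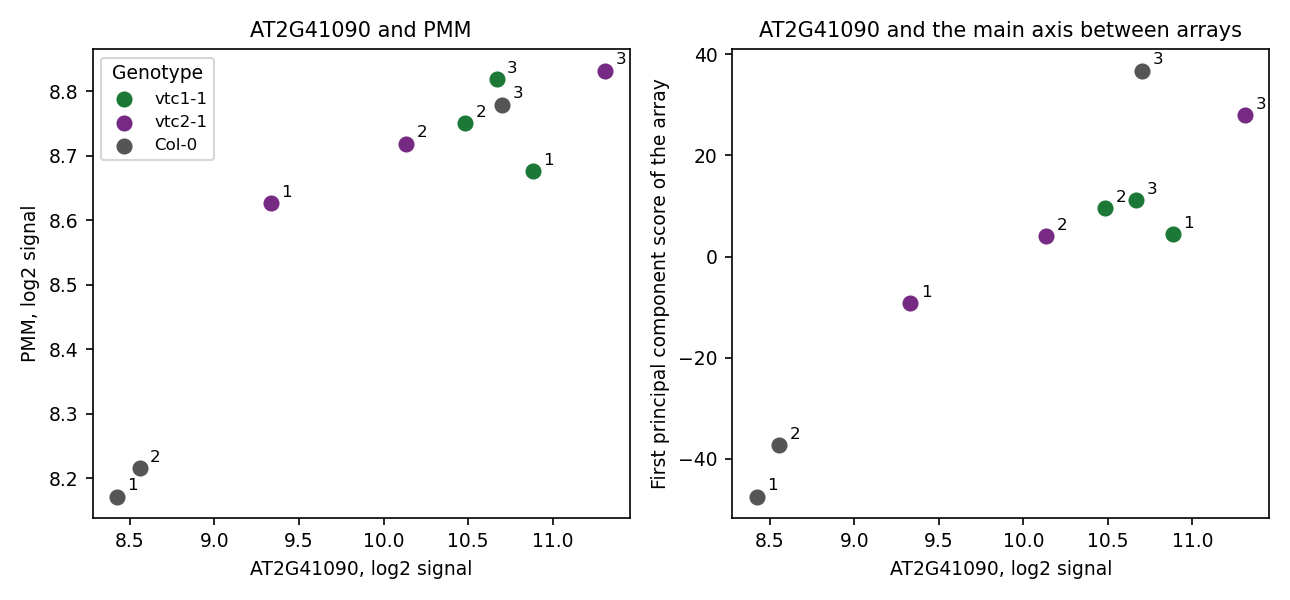
Left, log2 signal of PMM against log2 signal of AT2G41090. Right, score of each array on the first principal component of the tested probe sets against log2 signal of AT2G41090. Each point is an array, coloured by genotype and numbered by replicate; in both panels Col-0 replicates 1 and 2 lie at the lower left (r = 0.925 and 0.928). Col-0 replicate 3 lies within the range of the mutant arrays on the left and above all of them on the right, at 36.8.

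Of the ascorbate synthesis genes, PMM included, all 9 with a probe set were tested, and limma called 0 of 9 in vtc1-1 and 0 of 9 in vtc2-1 over all tested probe sets, beside 0.0% and 0.00685% of all. At an unadjusted p under 0.05, 0 of 9 passed in vtc1-1, and in vtc2-1 1 was higher, CSN5B, and 1 lower, GME, beside 3.66% and 2.62% of all tested probe sets (CSN5B is named after its value was seen). GME, the GDP-mannose epimerase, had a signal of 844.0 ± 8.31 in vtc1-1, 631 ± 37.2 in vtc2-1 and 976 ± 163 in Col-0 (SD, n = 3 each), and r = -0.52 with AT2G41090. GME passed as lower in vtc2-1 once Col-0 replicate 3 was left out, at -0.76 ± 0.13 (SE; limma adjusted p = 0.0266), and with both mutants pooled, at -0.55 ± 0.12 (adjusted p = 0.0434, with 1.19% of all probe sets called). It was then the 1 call among the 9 genes in those comparisons, with 0.835% of all probe sets called in vtc2-1. In vtc1-1 0 of 9 were called, beside 0.322% of all. CSN5B, a signalosome subunit known to promote the breakdown of VTC1, was dim, at 32.1 ± 6.14, 43.6 ± 4.66 and 21.4 ± 9.09 in vtc1-1, vtc2-1 and Col-0. In Col-0 replicates 1 and 3 CSN5B was under the 40th percentile of the array, and in replicate 2, at 28.3, barely above it. It thus passed the filter on dim probe sets mainly through mutant arrays, which favours a difference above 0. Its r of 0.54 with AT2G41090 lay between 0.085 and 0.64 when 1 array was left out. The list's median log2 difference was 0.11 in vtc1-1 and 0.10 in vtc2-1, beside 0.01 and 0.01 over all tested probe sets. In the ascorbate-glutathione cycle, the recycling route, 5 of 15 listed genes were measured and limma called 0 of 5 in either mutant, and 0 of 5 had an unadjusted p under 0.05. Their differences ran from 0.02 to 0.27 in vtc1-1 and from 0.00 to 0.52 in vtc2-1, with medians of 0.04 and 0.17.

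AT2G41090 was then set beside its own family. Of 50 listed calmodulin-like genes 35 are paired with a probe set, and 21 of these passed the filter on dim probe sets, AT2G41090 among them. None of the 7 calmodulin genes is paired with a probe set in the annotation used here. Of the 20 other tested family members limma called 0 in vtc1-1 and 0 in vtc2-1. At an unadjusted p under 0.05, 1 of 20 passed in vtc1-1, beside 4.13% of all tested probe sets, and 0 of 20 in vtc2-1, beside 6.28%. That member, named after its value was seen, was AT3G03000, at -0.70 ± 0.26 (SE) in vtc1-1. The median log2 difference of the 20 was -0.04 in vtc1-1 and 0.00 in vtc2-1, and 9 and 10 of them stood above 0. Without Col-0 replicate 3 the medians were 0.04 in vtc1-1 and 0.31 in vtc2-1, with 10 and 13 above 0, beside -0.02 and -0.01 over all tested probe sets. Limma then still called 0 of 20 in either mutant. At an unadjusted p under 0.05, 5 were higher and 1 lower in vtc1-1, beside 7.07% and 5.57% of all, and 3 were higher in vtc2-1, beside 8.83%. In both comparisons, with and without that array, AT2G41090 had the highest difference of the 21, which was not tested as a difference from the others.

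AT3G24110, the nearest to it in vtc2-1, had a signal of 32.9, 27.3 and 35.0 in vtc1-1 replicates 1 to 3, of 17.4, 36.2 and 41.5 in vtc2-1, and of 10.8, 15.7 and 28.9 in Col-0. It differed by 0.89 ± 0.50 in vtc1-1 and 0.80 ± 0.50 in vtc2-1 (SE), and neither passed (limma adjusted p = 0.998 and 0.809). Its Col-0 signals were all under the 40th percentile of their arrays, so it passed the filter through mutant arrays alone. That favours a difference above 0. AT3G10300, CML42, AT2G41410 and CML41 followed, with log2 differences in vtc2-1 of 0.25, 0.23, 0.18 and 0.16. At the other end stood AT3G10190 at -1.44 ± 0.81, CML38 at -0.95 ± 0.68 and CML43 at -0.72 ± 0.69, none of which passed. In vtc2-1 AT3G10190 was dim, at 7.42, 5.17 and 18.1, all under the 40th percentile of their arrays. It passed the filter through Col-0 and vtc1-1 arrays. CML43 had 27.0, 5.42 and 47.5 in vtc2-1 replicates 1 to 3, so its value leans on a dim replicate 2. CML38, known as a component of stress granules under low oxygen, had 26.5, 40.4 and 21.6 in vtc1-1, 30.7, 46.4 and 16.1 in vtc2-1, and 19.7, 42.1 and 198 in Col-0 replicates 1 to 3. Like AT2G41090 it was high in Col-0 replicate 3, but unlike AT2G41090 it was low in all mutant arrays, vtc2-1 replicate 3 included.

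**Figure D4:**
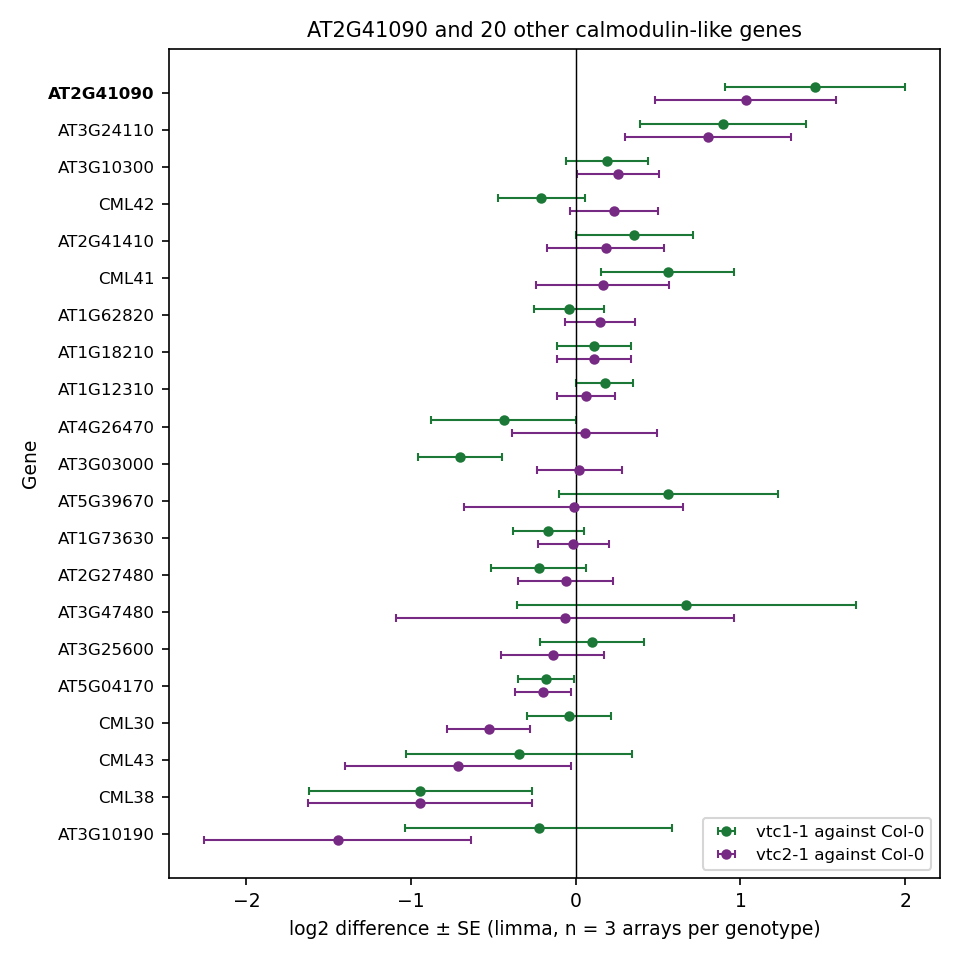
Log2 difference from Col-0 (horizontal axis, ± SE of the limma coefficient, n = 3 arrays per genotype) of AT2G41090 and 20 other tested calmodulin-like genes (rows, ordered by the vtc2-1 value), in vtc1-1 and vtc2-1. AT2G41090 is at the top with 1.45 and 1.03, AT3G24110 follows with 0.89 and 0.80, and AT3G10190 is last with -1.44 in vtc2-1. AT3G24110 in Col-0 and AT3G10190 in vtc2-1 had signals under the 40th percentile of every array of that genotype.

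On the chromosome AT2G41090 lies beside other calcium sensor genes. In the TAIR10.1 gene table TCH3, a touch-induced calmodulin-like gene, and CAM2, a calmodulin gene, follow it, and neither is paired with a probe set in the annotation used here. In the same table a long noncoding RNA, AT2G09220, overlaps AT2G41090, and whether the probes reach it was not tested. Of the 3 neighbouring entries on either side only AT2G41080 has a probe set. Its signal was 43.1 ± 6.09 in vtc1-1, 37.2 ± 14.0 in vtc2-1 and 39.7 ± 8.01 in Col-0 (SD, n = 3 each), and its log2 differences from Col-0 of 0.13 ± 0.34 in vtc1-1 and -0.15 ± 0.34 in vtc2-1 (SE) did not pass. In Col-0 replicate 3, where AT2G41090 was high, AT2G41080 had its lowest Col-0 signal, at 30.9.

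Lists of touch and calcium responses, calmodulin-regulated transcription and salicylate defence had few measured members. Of the touch and calcium list 2 of 10 were tested, STZ and CML38. STZ, a stress-induced zinc finger repressor, had a signal of 109.5, 418 and 108 in vtc1-1 replicates 1 to 3, of 162, 143 and 93.8 in vtc2-1, and of 50.9, 97.4 and 1492 in Col-0. The Col-0 replicate 3 value stood far above the rest, and vtc2-1 replicate 3 was the lowest of the vtc2-1 arrays, unlike for AT2G41090. The 3 tested CAMTA-type genes, whose products are calmodulin-binding transcription factors, differed by -0.24 to 0.01 in vtc1-1 and by -0.42 to -0.16 in vtc2-1. SAG101, a lipase-like partner of EDS1 in immunity, differed by 0.07 in vtc1-1 and -0.13 in vtc2-1. Of the tissue markers PYK10, a root beta-glucosidase, was measured, and the shoot markers on the list were not analysed here. PYK10 had 2031, 1726 and 2318 in vtc1-1 replicates 1 to 3, 4238, 4406 and 2086 in vtc2-1, and 2465, 2623 and 3001 in Col-0. It was thus lowest within vtc2-1, and highest within Col-0, in the replicate 3 arrays, and its part in the AT2G41090 values was not tested. Against Col-0 none of these members passed in limma in either mutant, and none had an unadjusted p under 0.05. Between the mutants PYK10 was at 0.75 ± 0.25 (SE) in vtc2-1 against vtc1-1, with an unadjusted limma p of 0.00986 and an adjusted p of 0.998, in a comparison where 3.61% of all tested probe sets had an unadjusted p under 0.05. The STZ differences turned, without Col-0 replicate 3, to 1.27 ± 0.48 in vtc1-1, against -0.19 with all arrays, and to 0.88 ± 0.48 in vtc2-1, against -0.59, and neither passed (limma adjusted p = 0.290 and 0.412).

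The genes whose profile over the 9 arrays was most like that of AT2G41090 were ranked by Pearson r of the log2 signals, a description with no test. Of the tested probe sets 146 had r above 0.9 with AT2G41090, of which 67 name 1 gene. The median tested probe set had 9 such partners, and 99.9% of tested probe sets had fewer than AT2G41090. AT2G41090 correlated with the first principal component at r = 0.928, as described above. How many of its partners follow that component was not tested. Only the 7896 other tested probe sets naming 1 gene were ranked, for similar and for opposite profiles. Among them the 12 genes with the highest r had values from 0.960 to 0.976. Col-0 replicate 3 was their highest Col-0 array and vtc2-1 replicate 3 their highest vtc2-1 array, in 12 of 12 cases each. AT2G41090 has this order itself, so the ranking selects for it and the count is no separate result.

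These 12 genes differed widely in the size of their changes. AT5G11770, a subunit of mitochondrial complex I, had the highest r, 0.976, with a range of only 1.26-fold between its lowest and highest array. AT5G14030, a translocon-associated protein of the endoplasmic reticulum, had r = 0.969 and a rho of 1.00 with a range of 1.43-fold. AT4G34290 ranged 1.90-fold. AT2G03510, AT1G75670, AT3G18760 and AT1G54770 ranged between 2.03-fold and 2.30-fold. Pearson r does not depend on the size of the range. These genes were chosen by it, so their similar order of the arrays is no separate result.

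The other 5 of the 12 ranged more widely than AT2G41090 itself. AT5G03350, a legume lectin-like protein known to be induced by salicylate, had a signal of 785, 709 and 728 in vtc1-1 replicates 1 to 3, of 139, 575 and 1642 in vtc2-1, and of 124, 92.2 and 709 in Col-0, with r = 0.974. AT3G22240 ranged 22.0-fold, and the receptor-like kinase gene AT1G35710 ranged 13.3-fold. AT1G19960 had r = 0.966, and AT4G12490, which encodes a lipid-transfer-like protein, had 0.960. In Col-0 replicates 1 and 2 AT1G35710 was at 17.3 and 9.89, and AT1G19960 at 2.17 and 1.49. These signals were under the 40th percentile of their arrays, so dim values set the low end of both ranges. In AT4G12490 the signal was 874, 1160.3 and 909.9 in vtc1-1, 272, 280.3 and 1573 in vtc2-1, and 62.7, 68.5 and 1495 in Col-0. Without Col-0 replicate 3 limma called 4 of the 12 in vtc1-1 and 2 of the 12 in vtc2-1, but these genes were chosen for their likeness to AT2G41090, so the count supports nothing beyond it.

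The most opposite profiles had r from -0.956 to -0.947. AT4G38690 had a signal of 181, 207 and 215 in vtc1-1 replicates 1 to 3, of 268, 244 and 197 in vtc2-1, and of 423, 391 and 176 in Col-0. The others were AT5G06970, known as PATROL1, a factor that brings a proton pump to the plasma membrane of guard cells, AT1G68400 and AT1G54920. In these 4 genes Col-0 replicates 1 and 2 were the highest arrays, as the choice of opposite profiles favours. Without Col-0 replicate 3, 10 of the 12 most similar genes stayed among the 12 highest, and their r over the 8 arrays ran from 0.963 to 0.977. By deviations from genotype means 2 of the 12 stayed, although all 12 had r of 0.941 to 0.980 on that measure.

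**Figure D5:**
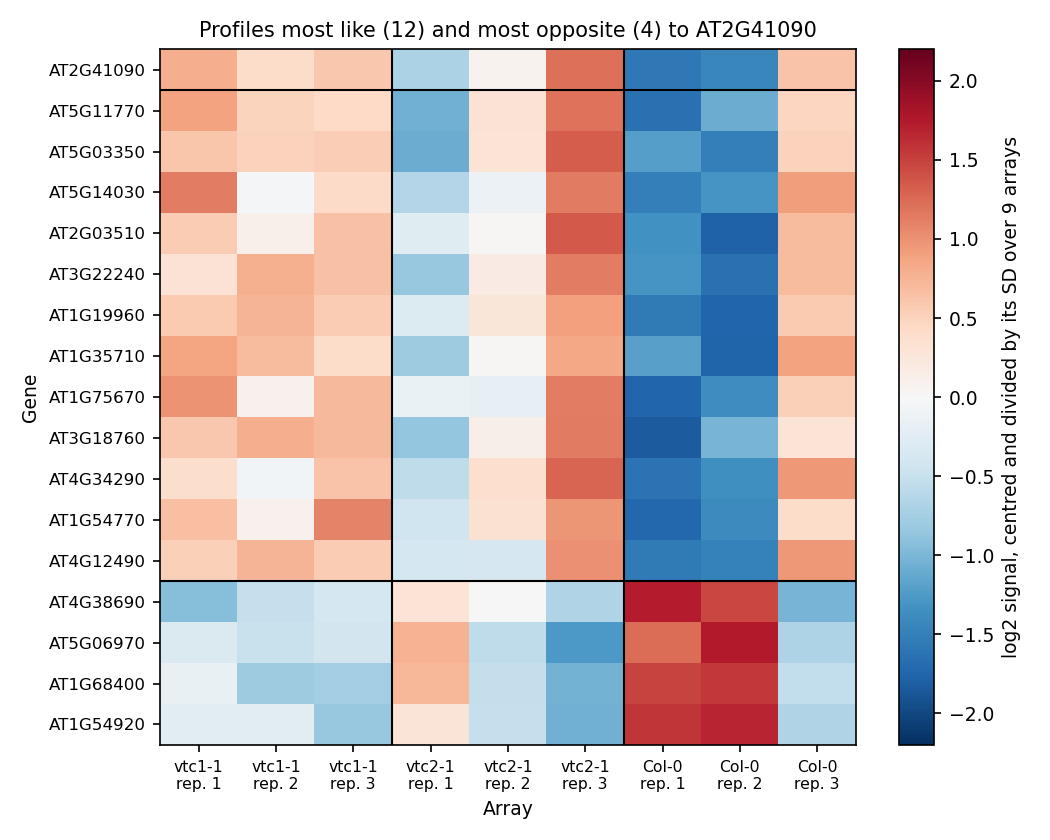
Log2 signal of AT2G41090 (top row), of the 12 genes with the most similar profile (middle rows) and of the 4 with the most opposite profile (bottom rows) in each array (columns), centred and divided by its SD over the 9 arrays. Similar and opposite profiles were taken only from tested probe sets naming 1 gene. Red is high and blue is low for that gene; Col-0 replicates 1 and 2 are blue in the top and middle rows and red in the bottom rows. Col-0 replicate 3 and vtc2-1 replicate 3 are red in the top and middle rows, while vtc2-1 replicate 1 is blue there.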

How the data were processed

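The deposited values are signal intensities on a linear scale, which the authors computed in MAS5 and GCOS (per the submitters' processing notes). No version or scaling target is given in the sources used here. From the values, the mean after trimming 2% at either end was 100.01 on every array and the array medians were 43.0 to 45.2, so the deposited intensities were used without further scaling. Detection calls were not used here.

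Signals were log2 transformed with no pseudocount. After control probe sets were dropped, those exceeding the 40th percentile of the array on 3 or more arrays were kept, 14603 in all. limma 3.58.1 (R 4.3.3; eBayes with an intensity trend) fitted the genotype means jointly, p-values were adjusted by Benjamini-Hochberg, and the procedure was tested on simulated data. Exact permutation tests enumerated all pairings or splits (Python 3.11.15, scipy 1.17.1). Alternatives were quantile and median scaling, a pseudocount of 16, other filters, no trend, robust eBayes, array weights, only the compared groups, the replicate number as a block, and arrays left out. Figures were drawn with matplotlib 3.10.9.

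Gene names came from GEO's annotation of the array platform, in which 13513 have 1 gene symbol, 503 have several and 8794 have none, and current symbols were looked up in RefSeq's gene table for TAIR10.1. The gene, the gene lists and the rule for named genes were chosen with earlier results of these data known. The rule named AT2G41090, genes of ascorbate synthesis, its chromosomal neighbours, the 5 highest and 3 lowest calmodulin-like genes in vtc2-1, 12 similar and 4 opposite profiles, and measured members of the lists of touch and calcium response, calmodulin-regulated transcription, salicylate defence, root and shoot. The similar and opposite profiles were sought only among tested probe sets naming 1 gene.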

Additional observations from a re-analysis of the deposited data

How the results depend on the processing

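For AT2G41090, the estimated difference from Col-0 stayed above 0 under every alternative run, and it passed the threshold only where Col-0 replicate 3 was left out. Its 95% interval in vtc1-1 included 0 with robust eBayes, at -0.31 to 3.21. It also did so without Col-0 replicate 1 (-0.23 to 2.32), Col-0 replicate 2 (-0.21 to 2.44) or vtc1-1 replicate 1 (-0.068 to 2.76). Leaving out 1 array at a time, and the 2 arrays together, gave log2 differences of 1.05 to 2.19 in vtc1-1, 0.50 to 1.77 in vtc2-1 and 0.84 to 1.98 with both mutants pooled. Between the mutants the range was -0.95 to 0.044, and the value above 0 came without vtc2-1 replicate 1. Without Col-0 replicate 3 and vtc2-1 replicate 3 together, the values were 2.19 in vtc1-1, 1.24 in vtc2-1 and 1.72 pooled. With the replicate number as a block, which changed no call, they were 1.45, 1.03 and 1.24, with limma adjusted p of 0.899, 0.623 and 0.477, against 0.998, 0.805 and 0.825 without the block. The block narrowed the SE from 0.55 to 0.38 in either mutant. Of 9 same-numbered pairs across genotypes, 2 had deviations from group means that correlated above 0.1. The same held for 1 of 18 differently numbered pairs. So few pairs cannot settle whether the numbers pair the samples.

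Over all tested probe sets, leaving out arrays gave 0 to 181 calls in vtc1-1, 0 to 122 in vtc2-1, 1 to 42 between the mutants and 0 to 233 pooled. With both arrays left out the counts were 181, 116, 42 and 233, and without Col-0 replicate 3 alone 47, 122, 1 and 174. Without an intensity trend limma called 0 in vtc2-1 and 2 between the mutants, and with only the compared groups 0 in vtc2-1. Of the 12 profiles most like AT2G41090, 10 were shared without Col-0 replicate 3, 4 by Spearman rho and 2 by deviations from genotype means. The r of AT2G41090 with PMM was 0.41 in residuals after the first principal component, a setting added after seeing the data.

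Among the named calmodulin-like genes, none of which passed with all 9 arrays, the sign turned for 6 when arrays were left out, and for AT3G24110 and AT3G10300 it stayed above 0 in both mutants under every alternative run. AT3G24110 passed the filter on dim probe sets through mutant arrays alone, which favours a difference above 0. In vtc2-1 the ranges were -0.10 to 0.43 for CML42, -0.13 to 0.65 for AT2G41410, -0.087 to 0.36 for CML41, -1.68 to 0.39 for CML38 and -1.37 to 0.19 for CML43. In vtc1-1 AT3G10190 ran from -0.67 to 0.045, at 0.0039 without Col-0 replicate 2. With both replicate 3 arrays left out, AT2G41410 passed in vtc1-1, at 0.82 (limma adjusted p = 0.0384). The causes were not tested.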
